A study of Mus musculus with 6 samples.

Results

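The genes described here encode the receptor chains for IL-6, IL-12, IL-27, IL-10, IL-18 and IL-33: Il6ra, Il6st, Il12rb1, Il12rb2, Il27ra, Il10ra, Il10rb, Il18r1, Il18rap and Il1rl1. They were chosen by symbol, and all 10 were found among 55335 genes of the count table. RNA was sequenced in bulk from CD4 T cells of the colon lamina propria of Rag1 KO mice, which have no T or B cells of their own. The hosts had received naive splenic CD4 T cells of TcfGFP donors and developed colitis. GFP, the reporter of the Tcf7 locus, set the gates: 3 libraries are GFP-positive (TCF7+, labelled stem-like) and 3 are GFP-negative (TCF7-, labelled effector), and there is no other group. All 6 libraries share the transfer, the KO host and the inflamed tissue. Mouse age, strain, time after transfer and the number of mice behind a library are not stated in the labels. The p-values therefore measure the spread between these samples, which may be technical. The Rag1 KO host keeps its innate lymphoid and myeloid cells. The brightness limits of the sort gates are not stated either.

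These receptors carry the signals that steer helper T cells in the gut. IL-6, IL-12, IL-27 and IL-10 bind chains without a catalytic domain of their own, which signal through JAK kinases and STAT factors. The chains are shared: gp130, the product of Il6st, serves IL-6 and IL-27, and the product of Il12rb1 serves IL-12 and IL-23. IL-18 and IL-33 bind relatives of the IL-1 receptor, which signal through MYD88 to NF-kB. Naive and memory T cells are known to carry the IL-6 receptor, effector Th1 cells to carry the IL-12 and IL-18 receptors, and Th2 and tissue regulatory T cells to carry ST2, the IL-33 receptor.

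Library totals ran from 4309500 to 7462076 counts, and 3 counts of a gene correspond to 0.43 to 0.69 CPM (counts scaled to library size). Intervals and floors from counts cover counting error only. Defining T cell genes, Cd3e, Cd4 and Trac among them, were present in every library, and the list of 10 T cell genes held 0.64% to 0.921% of counts. Tcf7 ranged from 141 to 237 CPM over GFP-positive libraries and from 71.3 to 141 CPM over GFP-negative ones, so the gates met at the edge. GFP-positive replicate 3 stood apart. Markers of myeloid cells, 15 genes of which 1 (Cd163) was at 0 in every library, held 0.726% of its counts and 0.0141% to 0.0203% in the others. The 8 genes of antigen-presenting cells held 0.6595% there and 0.0187% to 0.0473% elsewhere. For 6 epithelial genes the share was 0.0336% there and 0.00235% to 0.00673% elsewhere. For 9 stromal and endothelial genes it was 0.039% and 0.00424% to 0.00845%. For 6 genes of NK and innate lymphoid cells it was 0.0764% and 0.00297% to 0.0134%. Of these, Tyrobp and Fcer1g had 3395 and 2105 counts there, and Ncr1, Klrb1c, Klre1 and Eomes had 53, 60, 38 and 50. By CPM, Ncr1 and Klre1 were highest in GFP-negative replicate 2, while Klrb1c was highest and Eomes lowest in GFP-positive replicate 3. The lists of B cells and CD8 T cells were lowest in that library. Values are therefore given by library, and fold changes also without that library. In bulk RNA, fewer cells of a type and less RNA per cell cannot be told apart.

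None of the 10 receptor genes was called between the gates. By edgeR's quasi-likelihood test, 0 of 10 passed an adjusted p of 0.05, against 0.108% of 11074 genes tested (12 genes). At an unadjusted p under 0.05 there was 1 member, Il6ra, or 10% of the members against 10.3% of all genes. DESeq2, limma-voom and edgeR with a replicate block also called 0 of 10. Without GFP-positive replicate 3, edgeR called 0 of the 9 members it could test, against 0.37% of all genes. The CPM values of 2 members, Il6ra and Il18r1, did not overlap between the gates and were higher in GFP-positive libraries. That is 20% of the members, where 16% of all genes did not overlap in either direction, 7.25% higher and 8.8% lower, and 0 members lay lower without overlap. With 10 members each gene is 10% of the set, and nothing particular to the receptors is read from these shares. Il6ra entered the test through its GFP-positive libraries alone, so the filter favoured the direction of its p and of its lack of overlap. The members had 5 positive and 5 negative log2 fold changes (GFP-positive minus GFP-negative throughout), with a median of 0.04, and the median over all tested genes was 0.02.

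**Figure D1:**
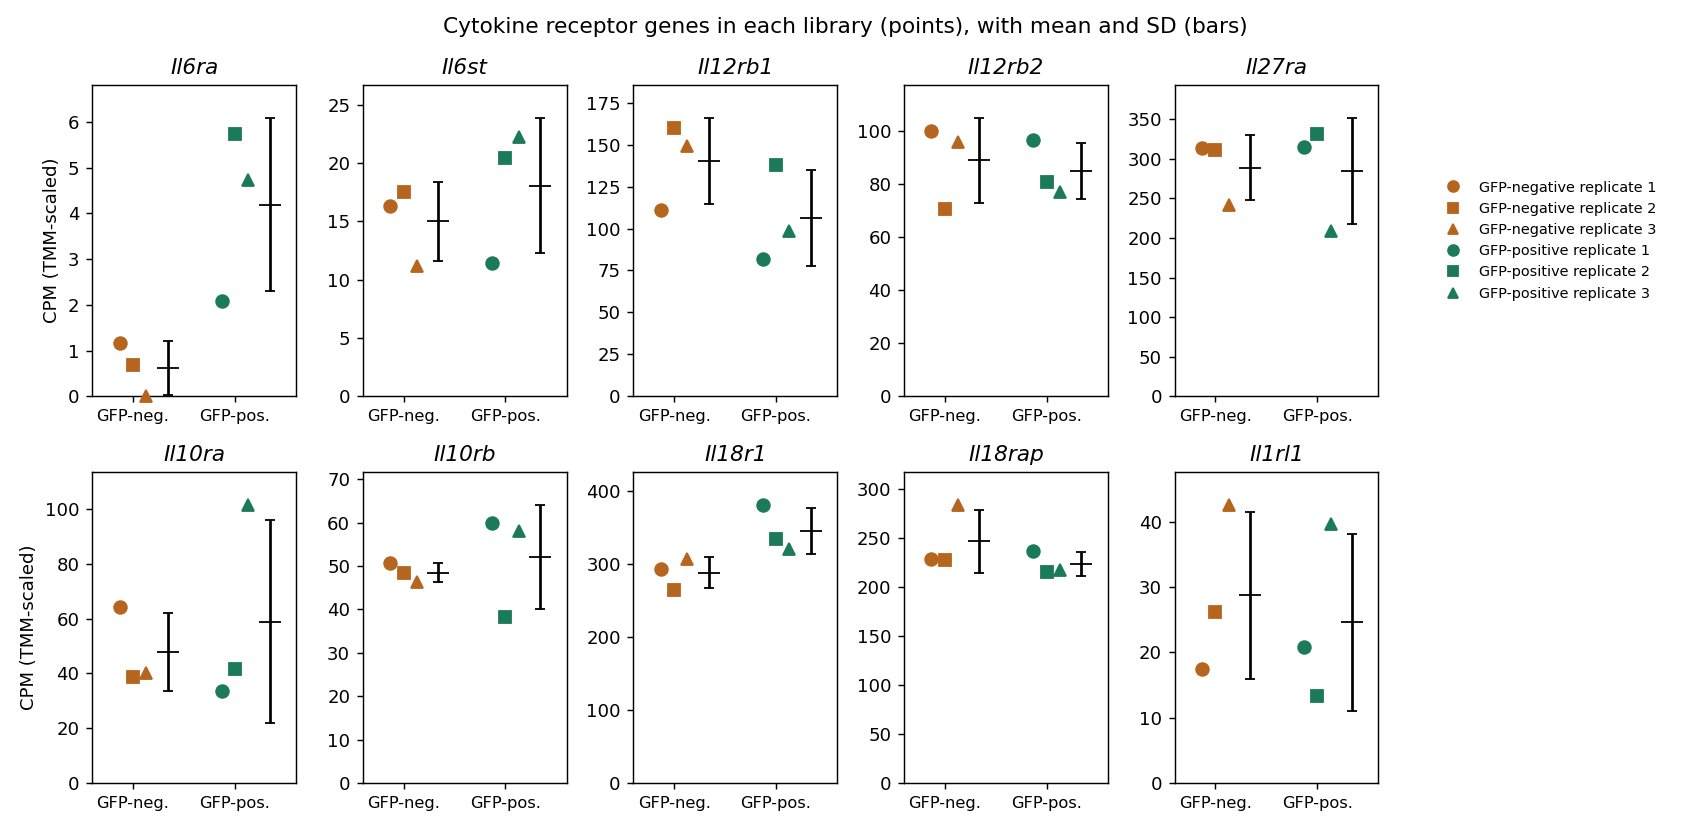
CPM of the 10 receptor genes in each library, GFP-negative in brown and GFP-positive in green, with a symbol per replicate number and the mean and SD (n = 3) in black. The gates do not overlap for Il6ra and Il18r1, and Il10ra is highest in GFP-positive replicate 3, at 102 CPM.

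The levels spanned a wide range and kept 1 order in both gates. On the TPM scale, which is per transcript length, Il27ra led with a mean level of 241 ± 37.9 TPM (SD, n = 3) in the GFP-negative gate and 230 ± 66.5 TPM (SD, n = 3) in the GFP-positive gate. Il18r1, Il18rap, Il12rb1, Il12rb2, Il10ra, Il10rb, Il1rl1, Il6st and Il6ra followed in that order. At the bottom Il6st had a level of 3.95 ± 0.955 and 4.47 ± 1.20 TPM, and Il6ra 0.208 ± 0.196 and 1.33 ± 0.579 TPM. In GFP-negative libraries the ranges of neighbours overlapped for Il18rap with Il12rb1 and for Il10ra with Il10rb. In GFP-positive libraries they also overlapped for Il27ra with Il18r1, Il12rb1 with Il12rb2 and Il12rb2 with Il10ra. The RNA of the private chain for IL-27 and of both IL-18 receptor chains thus stood far above that of the chains for IL-6.

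**Figure D2:**
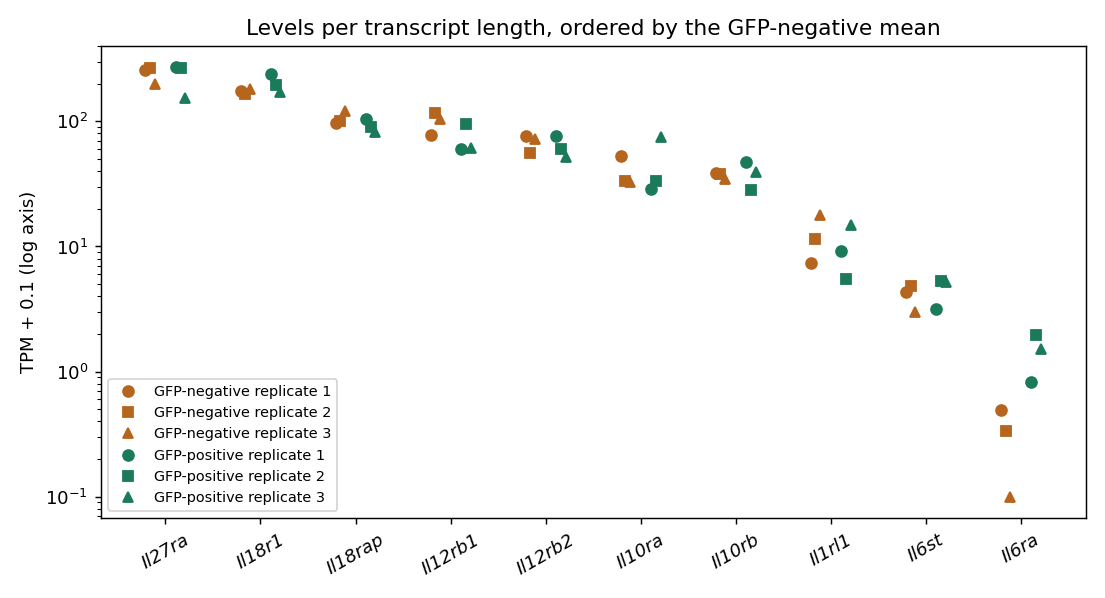
TPM + 0.1 on a log axis for each receptor gene and library, ordered by the GFP-negative mean. Il27ra and Il18r1 lie highest, Il6st and Il6ra lowest, and Il6ra is listed at 0 TPM in GFP-negative replicate 3.

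The receptor for IL-6 had the widest difference. Il6ra (ENSMUSG00000027947.11, mm10 chromosome 3, 89864059 to 89913196, minus strand) encodes the chain that binds IL-6. It had 12, 25 and 33 counts in GFP-positive replicates 1 to 3, or 2.08, 5.75 and 4.73 CPM. GFP-negative replicates 1 to 3 had 6, 3 and 0 counts, or 1.16, 0.682 and 0 CPM, where a count of 0 allows up to 0.658 CPM. All GFP-positive libraries were higher than all GFP-negative ones. Pooled over each gate, 70 against 9 counts gave a ratio of 6.42 with a 95% counting interval of 3.20 to 14.6 (exact binomial). That interval leaves out the spread between libraries, so no support is drawn from it. The log2 fold change was 2.696 ± 1.07 (SE; 95% interval 0.39 to 5.01), and edgeR's adjusted p over all genes was 0.404. Il6ra passed the expression filter through its GFP-positive libraries alone. Without GFP-positive replicate 3, on the genes of the full data, the log2 fold change was 2.60 ± 1.22 (edgeR adjusted p = 0.412). The part of myeloid or other cells in the Il6ra values was not tested.

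The signalling chain of that receptor differed less. Il6st (chromosome 13, 112464070 to 112510086) encodes gp130, which IL-6 and IL-27 receptors share. It had 11.4, 20.5 and 22.2 CPM in GFP-positive replicates 1 to 3 and 16.3, 17.5 and 11.2 CPM in GFP-negative ones. The gates overlapped, with the lowest value in each at almost the same level. Its log2 fold change was 0.27 (95% interval -0.54 to 1.08, edgeR adjusted p = 0.865). Within a library, the log2 ratio of Il6ra over Il6st (TPM + 0.1) was -1.96, -1.42 and -1.80 in GFP-positive replicates 1 to 3. In GFP-negative replicates 1 to 3 it was -3.15, -3.84 and -4.90. The mean ratio differed by 2.24 between the gates, and by 0.79 with TPM + 1. This size is set largely by the pseudocount, since GFP-negative libraries held 6, 3 and 0 counts of Il6ra, and no test is drawn from it.

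The promoters of 4 members are shown: those of both chains of the IL-6 receptor, since Il6ra has the widest difference, and those of Il12rb2 and Il18rap, which hold a searched motif before the most upstream listed start. Il18r1 has 2 TTCNNNGAA matches before another listed start, at chr1:40465756-40466005 (plus strand), within its own gene. RefSeq (GRCm38.p6) listed promoters for 6 of the 10 genes, and the 250 bases before a start were read 5′ to 3′ on the gene's strand. The letters searched on both strands were CTTTGA and CTTTGT, the core of sites for TCF1 and LEF1, and TTCNNNGAA, the core of STAT sites. They do not overlap one another here, and matches are in capitals. Of 32851 such windows, 27.6% held CTTTGA or CTTTGT and 7.02% held TTCNNNGAA. The windows are Il6ra at chr3:89913197-89913446 (minus strand), Il6st at chr13:112463820-112464069 (plus), Il12rb2 at chr6:67376189-67376438 (minus) and Il18rap at chr1:40515112-40515361 (plus).
Il6ra: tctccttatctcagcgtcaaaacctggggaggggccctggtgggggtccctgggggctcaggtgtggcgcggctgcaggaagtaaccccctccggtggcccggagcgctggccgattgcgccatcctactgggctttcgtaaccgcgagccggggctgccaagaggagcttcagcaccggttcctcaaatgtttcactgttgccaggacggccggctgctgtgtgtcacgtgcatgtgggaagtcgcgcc
Il6st: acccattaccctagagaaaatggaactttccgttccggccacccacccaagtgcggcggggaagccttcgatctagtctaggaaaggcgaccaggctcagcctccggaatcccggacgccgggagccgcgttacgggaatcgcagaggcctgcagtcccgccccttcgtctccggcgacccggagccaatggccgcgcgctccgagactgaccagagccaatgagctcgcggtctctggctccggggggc
Il12rb2: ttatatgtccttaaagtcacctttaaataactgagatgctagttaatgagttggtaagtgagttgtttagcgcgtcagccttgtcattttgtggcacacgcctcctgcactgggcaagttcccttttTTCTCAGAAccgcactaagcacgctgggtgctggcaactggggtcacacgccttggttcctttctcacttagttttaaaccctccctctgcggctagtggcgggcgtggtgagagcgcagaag
Il18rap: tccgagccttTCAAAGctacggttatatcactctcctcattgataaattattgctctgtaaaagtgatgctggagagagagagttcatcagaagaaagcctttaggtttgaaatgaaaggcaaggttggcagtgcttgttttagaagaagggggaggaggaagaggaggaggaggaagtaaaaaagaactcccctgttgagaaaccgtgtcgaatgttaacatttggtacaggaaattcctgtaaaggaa
Il12rb2 has 1 STAT core that begins 123 bases before the start, and Il18rap has 1 TCF/LEF core, read on the other strand, that begins 240 bases before it. Il6ra and Il6st have neither. These are matches of letters and were not linked to the expression values. The Il6ra window also holds an exon of Gm42809, a gene on the other strand.

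Neither chain for IL-12 was called between the gates. Il12rb1 (chromosome 8, 70808449 to 70821424), the chain that IL-12 shares with IL-23, had 82.1, 138 and 98.5 CPM in GFP-positive replicates 1 to 3. GFP-negative replicates 1 to 3 had 111, 160 and 149 CPM, so that the gates overlapped through GFP-positive replicate 2. The log2 fold change was -0.40 (95% interval -0.85 to 0.05, edgeR adjusted p = 0.558). It was -0.63 (95% interval -1.09 to -0.17) without GFP-positive replicate 2 and -0.25 (95% interval -0.71 to 0.20) without GFP-positive replicate 1. Il12rb2 (chromosome 6, 67291318 to 67376188), the chain that binds STAT4 and marks Th1 cells, had 96.8, 80.9 and 77.2 CPM against 100.02, 70.7 and 96.0 CPM. Its values were intermixed, with a log2 fold change of -0.07 (95% interval -0.47 to 0.34, edgeR adjusted p = 0.938). The log2 ratio of Il12rb2 over Il12rb1 overlapped too, at a mean of -0.18 over GFP-positive and -0.54 over GFP-negative libraries (two-sided exact permutation p = 0.5, and 0.833 adjusted over the 5 ratios computed).

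Il27ra (chromosome 8, 84030294 to 84042589) encodes the private chain for IL-27, a cytokine that restrains effector T cells. It had 315, 331 and 208 CPM in GFP-positive replicates 1 to 3 and 313, 311 and 241 CPM in GFP-negative ones. The gates were intermixed, and replicate 3 was the lowest library in each. The log2 fold change was -0.02 (95% interval -0.42 to 0.38, edgeR adjusted p = 0.985). Without GFP-positive replicate 3 it was 0.17 (edgeR adjusted p = 0.724 on the genes of the full data). In each library Il27ra stood well above Il6st, its signalling partner, with mean log2 TPM ratios of 5.64 over GFP-positive and 5.91 over GFP-negative libraries (two-sided exact permutation p = 0.7, adjusted p = 0.875).

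Receptors for IL-10, which restrains colitis, showed 1 value out of line. Il10ra (chromosome 9, 45253837 to 45269149), the chain that binds IL-10 on T cells and macrophages, had 102 CPM in GFP-positive replicate 3. Replicates 1 and 2 had 33.8 and 41.6 CPM, and GFP-negative replicates 1 to 3 had 64.2, 38.9 and 40.1 CPM. The library with the highest Il10ra was the one with 4217 CPM of the macrophage and neutrophil gene Lyz2, against 65.8 to 100.4 CPM in the others. The part of those cells, or of the other cells whose markers were high in that library, was not tested. With that library the log2 fold change was 0.31 (95% interval -0.65 to 1.26, edgeR adjusted p = 0.863), and without it the direction turned to -0.33 (edgeR adjusted p = 0.71).

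Il10rb (chromosome 16, 91406164 to 91425834), which receptors for IL-10, IL-22 and type III interferon share, had 59.9, 38.2 and 57.9 CPM in GFP-positive replicates 1 to 3. GFP-negative libraries lay close together, at 50.8, 48.4 and 46.3 CPM, inside the GFP-positive range. The log2 fold change was 0.10 (95% interval -0.39 to 0.60, edgeR adjusted p = 0.923). Il10ra over Il10rb had mean log2 ratios of 0.16 ± 0.82 and 0.06 ± 0.35 (SD, n = 3 each), with a p of 1 before and after adjustment in the exact permutation test. Without GFP-positive replicate 3 the difference of that ratio was -0.29.

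The chains of the IL-18 receptor had log2 fold changes of opposite sign, and neither was called. Il18r1 (chromosome 1, 40465552 to 40500854), which binds IL-18, had 381, 334 and 321 CPM in GFP-positive replicates 1 to 3. GFP-negative replicates 1 to 3 had 294, 264 and 307 CPM, all below the GFP-positive ones. Its log2 fold change was 0.26 ± 0.14 (SE; 95% interval -0.04 to 0.56, edgeR adjusted p = 0.576), and 0.32 without GFP-positive replicate 3 (edgeR adjusted p = 0.389). On the TPM scale the gates overlapped, with GFP-positive replicate 3 at 171 TPM and GFP-negative replicate 3 at 182 TPM.

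Il18rap (chromosome 1, 40515362 to 40551705), the accessory chain that IL-18 signalling needs, had 237, 215 and 217 CPM against 229, 227 and 283 CPM. The gates overlapped, with GFP-negative replicate 3 highest, and the log2 fold change was -0.14 (95% interval -0.45 to 0.17, edgeR adjusted p = 0.797). The log2 ratio of Il18rap over Il18r1 was -1.171, -1.12 and -1.05 in GFP-positive replicates 1 to 3. In GFP-negative replicates 1 to 3 it was -0.85, -0.70 and -0.60. Every GFP-positive library thus had less Il18rap per Il18r1 than every GFP-negative one, by a mean of -0.40 on the log2 scale (two-sided exact permutation p = 0.1, the smallest that 3 against 3 allows, adjusted p = 0.25). The difference ran from -0.46 to -0.34 when each library was left out, and it does not depend on library scaling, since both chains come from the same library.

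**Figure D3:**
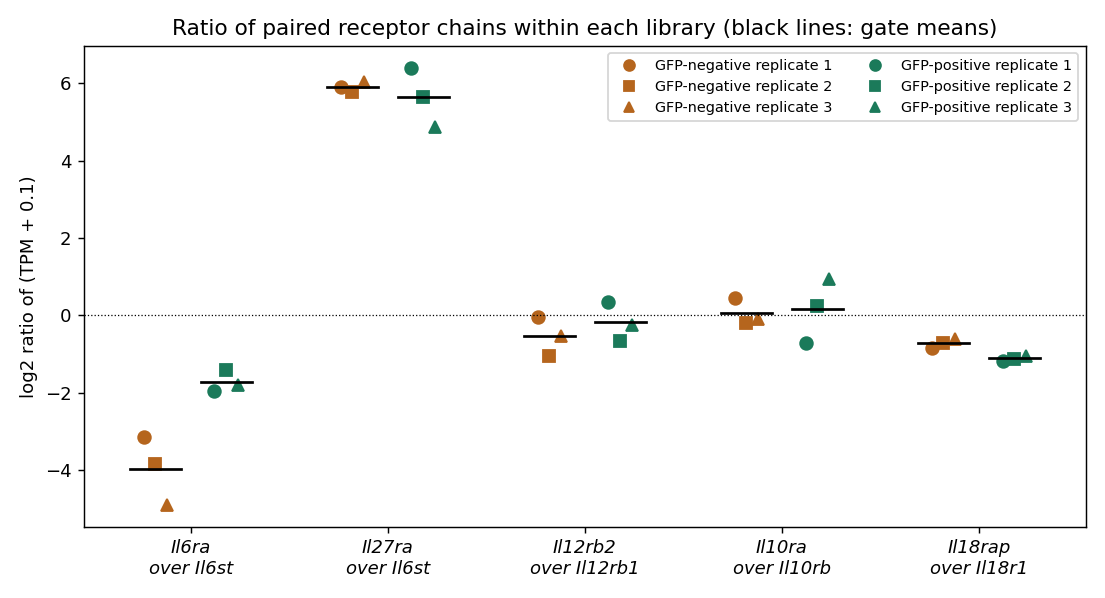
Log2 ratio of TPM + 0.1 between paired receptor chains in each library, with gate means as black lines. The gates do not overlap for Il18rap over Il18r1 (difference -0.40) or for Il6ra over Il6st, whose GFP-negative values rest on the pseudocount, and they overlap for the other ratios.

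Il1rl1 (chromosome 1, 40429570 to 40465415) encodes ST2, the receptor for the alarmin IL-33, in membrane and soluble forms that counts per gene do not separate. It had 20.8, 13.3 and 39.6 CPM in GFP-positive replicates 1 to 3 and 17.4, 26.2 and 42.5 CPM in GFP-negative ones. The spread within each gate was wider than the difference between the gates, and replicate 3 was the highest in both. The log2 fold change was -0.22 (95% interval -1.15 to 0.72, edgeR adjusted p = 0.91), and -0.73 without GFP-positive replicate 3 (edgeR adjusted p = 0.517). Mast cells carry ST2 as well. The list of 11 mast cell and basophil genes held 0.00102% to 0.00395% of counts, with Ms4a2 and Mcpt2 at 0 in every library, and its highest share was in GFP-positive replicate 3. Kit, which other cells carry too, gave 229 of the 295 counts there. Without Kit the share was 0.000885% in that library and 0.000887% in GFP-negative replicate 1. Foxp3, the factor of regulatory T cells, had 0, 0 and 6 counts in GFP-positive replicates 1 to 3 and 67, 145 and 11 counts in GFP-negative ones. The list of 6 regulatory T cell genes, Foxp3 among them, held 0.0954% to 0.122% of counts in GFP-negative libraries and 0.0735% to 0.0897% in GFP-positive ones. Ctla4 gave the most counts of that list in every library, with a log2 fold change of -0.41. Those of Ikzf2, Il2ra, Tnfrsf18 and Nrp1 were -0.86, -0.19, -0.04 and 0.51. The 7 genes of Th2 and innate lymphoid cells held 0.0148% to 0.0314% in GFP-negative libraries and 0.0123% to 0.0145% in GFP-positive ones. Among them, Areg and Klrg1 were lower in GFP-positive libraries without overlap, with log2 fold changes of -1.303 and -1.503. Gata3 overlapped between the gates, with a log2 fold change of -0.054. Il4, Il5, Il13 and Ptgdr2 did not pass the filter and had at most 13 counts in a library. The part of mast cells, regulatory T cells, Th2 cells or innate lymphoid cells in the Il1rl1 values was not tested.

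**Figure D4:**
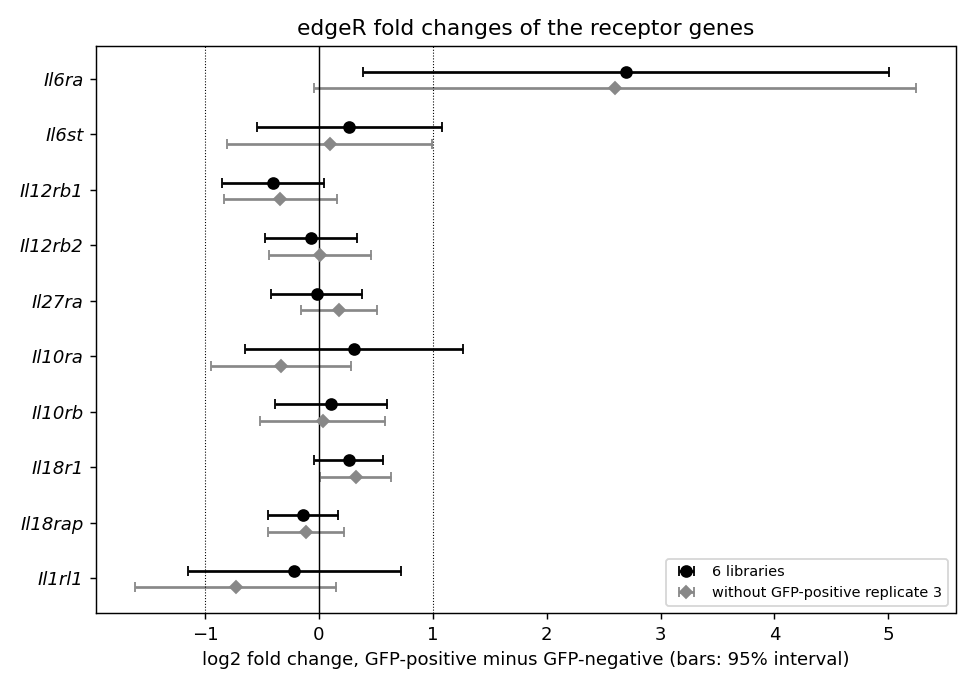
EdgeR log2 fold changes of the 10 receptor genes (GFP-positive minus GFP-negative) with 95% intervals, from 6 libraries (black) and without GFP-positive replicate 3 on the same genes (grey). Dotted lines mark -1 and 1. The intervals of Il12rb1, Il12rb2, Il27ra, Il10rb, Il18r1 and Il18rap lie within them in both fits.

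The precision differed between members. The intervals of Il12rb1, Il12rb2, Il27ra, Il10rb, Il18r1 and Il18rap lay within -1 to 1 on the log2 scale, so a 2-fold difference between the gates was outside them. That of Il12rb1 reached beyond -1 without GFP-negative replicate 1 or GFP-positive replicate 2, and those of the other 5 stayed within with any single library left out. The intervals of Il6st, Il10ra and Il1rl1 held both 0 and a 2-fold difference, which could not be told apart at this depth and spread. The interval of Il6ra lay above 0 and reached 5.01, and the gene rested on at most 33 counts in a library. Il6ra passed the filter through its GFP-positive libraries alone, so no support is drawn from the side on which that interval lay.

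Il1rl1, Il18r1 and Il18rap lie in a row on chromosome 1 within the IL-1 receptor cluster, all on the plus strand. Il1rl1 ends 136 bases before Il18r1 begins, and 14507 bases separate Il18r1 from Il18rap. Neighbours did not share a level: the mean level in GFP-negative libraries was 12.1 TPM for Il1rl1, 174 TPM for Il18r1 and 106 TPM for Il18rap. Farther upstream, Il1r2, a decoy receptor for IL-1, had a mean level of 251 ± 42.6 TPM in GFP-negative libraries, above Il18r1, while Il1r1, the signalling receptor for IL-1, had 22.6 ± 3.56 TPM. In GFP-positive replicates 1 to 3 Il1r2 had 96.9, 118 and 288 TPM (edgeR adjusted p = 0.835). The highest value was in the library where myeloid, epithelial and stromal markers were high. Il1rl2, the IL-36 receptor, had 19.9, 11.3 and 15.6 CPM in GFP-positive and 4.07, 9.32 and 7.46 CPM in GFP-negative replicates 1 to 3. Its values did not overlap, where 16% of all genes do not, and it was not called (edgeR adjusted p = 0.391). Slc9a4, a sodium and proton exchanger at the other end, was at 0 in all libraries.

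**Figure D5:**
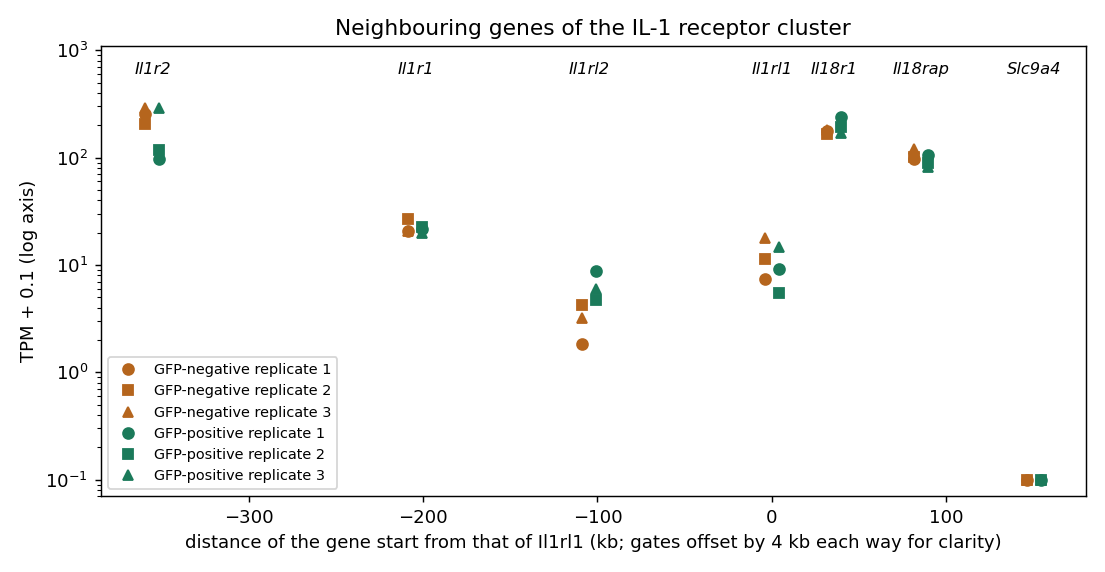
TPM + 0.1 on a log axis for genes of the IL-1 receptor cluster against the distance of their starts from that of Il1rl1 in kb. Il1r2, Il18r1 and Il18rap are high, Il1rl2 and Il1rl1 low, and Slc9a4 is listed at 0 in every library.

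Other genes of these pathways were read from 6 fixed lists. Among 21 related receptor chains 12 were tested and 0 were called, with 3 higher and 1 lower at an unadjusted p under 0.05, against 4.31% higher and 5.97% lower over all genes. Ifnar2, a chain of the type I interferon receptor, had 67.5, 54.5 and 61.1 CPM in GFP-positive and 44.2, 34.6 and 42.3 CPM in GFP-negative replicates 1 to 3 (log2 fold change 0.60, edgeR adjusted p = 0.343). Il1rap, the accessory chain that ST2 and the IL-1 receptor share, had 10.7, 9.20 and 12.5 CPM against 19.2, 17.1 and 22.8 CPM (log2 fold change -0.86, edgeR adjusted p = 0.412). Neither gene overlapped between the gates, where 16% of all genes do not. Il23r, the partner of Il12rb1 for IL-23, was outside the naming rule and had 26.7, 33.6 and 31.8 CPM against 15.9, 30.2 and 34.6 CPM.

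Of 14 ligand genes, 6 passed the filter and 0 were called. Il22, which signals through Il10rb, was abundant, with 127, 199 and 85.6 CPM in GFP-positive replicates 1 to 3 and 74.0, 181 and 143 CPM in GFP-negative ones. Il6, Il12b, Il23a, Il27, Il18 and Il33, named after their values were seen, were highest in GFP-positive replicate 3. Markers of myeloid, epithelial and stromal cells were high in that library. Il23a stood at 15.9 CPM and Il6 at 14.9 CPM there, and each at no more than 1.54 CPM elsewhere. The part of those cells in the ligand values was not tested. Il11, Osm and Clcf1 were highest in GFP-positive replicate 3 too. The remaining ligands were highest in other libraries. Among them were Il12a, in GFP-negative replicate 1 at 2.13 CPM, and Ebi3, a chain of IL-27, in GFP-positive replicate 2 at 7.59 CPM. Il10 had 0, 0.23 and 2.15 CPM in GFP-positive replicates 1 to 3 and 2.52, 7.28 and 3.51 CPM in GFP-negative ones. It lay lower without overlap, as did 8.8% of all genes, and was not called (edgeR adjusted p = 0.517). Il10 passed the expression filter through its GFP-negative libraries alone, so the filter favoured that direction and no support is drawn from it. Osm, oncostatin M, had 140 CPM in GFP-positive replicate 3 and 12.5 to 22.7 CPM in the others (edgeR adjusted p = 0.667). Clcf1, another gp130 ligand at 20.9 to 37.6 CPM, and Il22 had log2 fold changes of 0.12 and 0.05 (edgeR adjusted p = 0.929 and 0.987).

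Downstream of the receptors, 0 of 16 transducers were called. Jak2, a kinase of the IL-12 and IL-23 receptors, had 34.6, 43.7 and 52.1 CPM in GFP-positive and 66.1, 70.7 and 54.4 CPM in GFP-negative replicates 1 to 3 (log2 fold change -0.55, edgeR adjusted p = 0.416). Tyk2, its partner kinase, had 71.7, 58.4 and 46.8 CPM against 73.9, 86.0 and 74.3 CPM (log2 fold change -0.41, edgeR adjusted p = 0.54). For both kinases every GFP-positive library was below every GFP-negative one. That holds for 8.8% of all genes tested, and both kinases were named for their small p. The phosphatase gene Ptpn11 overlapped between the gates (edgeR adjusted p = 0.707).

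Among 15 brakes and sheddases 1 was called, Socs3, the feedback inhibitor that binds gp130, where 0.108% of all genes were called. It rose in GFP-positive libraries by 1.295 on the log2 scale (edgeR adjusted p = 0.0125). At an unadjusted p under 0.05, 3 of the 15 were higher and 1 lower, against 4.31% and 5.97% of all genes. The lower one, Socs2, was outside the naming rule (log2 fold change -0.85, edgeR adjusted p = 0.211). Socs3 is also the 1 call among 14 genes that respond to STAT3, where 7 log2 fold changes were positive and 7 negative. In the same libraries Il6st had an adjusted p of 0.865, as given above. Of 12 genes that respond to STAT4 and IL-18, 10 were tested and 0 called, with 1 higher and 4 lower at an unadjusted p under 0.05, where 4.31% of all genes were higher and 5.97% lower. Ifng, the cytokine that IL-12 and IL-18 induce together, and Tbx21 had log2 fold changes of -0.67 and -0.53 (edgeR adjusted p = 0.212 and 0.268). Furin, a protease gene that STAT4 induces, had -0.61 (edgeR adjusted p = 0.379).

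Exons of some members overlap exons of other genes, and the library kit does not record strand, so shared reads cannot be assigned. Il12rb2 overlaps Serbp1 on the other strand, an abundant gene at 388 to 457 CPM with a log2 fold change of 0.02. Il27ra overlaps Palm3, at 3.30 to 9.87 CPM. Il6ra overlaps Gm42809, which had 4 and 2 counts in GFP-positive replicates 1 and 2 and 0 elsewhere. Il10rb overlaps Gm21970 on its own strand, which had 0 counts in every library. The other 6 members overlap no annotated exon of another gene.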

How the data were processed

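The authors deposited gene counts, not normalized, and TPM values for the same 6 libraries. The submitters' processing notes name STAR 2.7.10b, fastp 0.23.3, deepTools 3.5.1 and SAMtools 1.17 and the mm10 build. What each did, the read counter and the gene models: not given in the sources used here. Per the labels' protocols, cDNA was primed with oligo-dT and random hexamers, PCR-amplified and fragmented with Nextera XT, a procedure without molecular identifiers that does not record strand. Genes missing from the deposited TPM table held 3.65% to 7.82% of counts. Groups and replicate numbers came from the sample titles.

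Counts were tested with edgeR 4.0.16 (R 4.3.3): TMM scaling, the default expression filter (minimum count 10, 11074 genes kept), robust quasi-likelihood F-test with the gate as the only term, and Benjamini-Hochberg adjustment over all genes. CPM is relative to the TMM-scaled total. SE was derived from the fold change and F. Ratios of chains used log2(TPM + 0.1) and two-sided exact permutation tests. Coordinates are from GENCODE M21 (mm10, 1-based), which matched all 10 identifiers. Named genes were the 10 members, Tcf7 and, per list, the genes past the threshold or else up to 3 with the smallest p and at least 5 CPM. Members, lists and tests were chosen with earlier results of these data known.

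The edgeR test was tested on simulated data for 10732 genes of this comparison. It called 17 of 94 genes simulated with a 2-fold change and 70 of 97 with a 4-fold change, and 9 of its 96 calls were genes simulated without one. Alternatives were RLE factors, library size alone, other filters, DESeq2 1.42.0, limma-voom (limma 3.58.1), limma on log2 TPM, a replicate block and leaving out each library. No libraries were duplicates, with a chi-square per degree of freedom of at least 11.1.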

Additional observations from a re-analysis of the deposited data

How the results depend on the processing

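No member was called under any of 17 alternatives (edgeR with other scaling, filters or a replicate block, DESeq2, limma-voom, limma on TPM, each library left out), and the smallest adjusted p of a member was 0.255. The count of genes called over all genes, 12, was 19 with library size alone, 373 with no filter, 200 by DESeq2 and 81 with the replicate block. It was 1 by limma on log2(TPM + 1) with or without a filter, 0 on log2(TPM + 0.1), and 0 to 42 when each library was left out. Without GFP-positive replicate 3 on the genes of the full data, chosen after seeing the data, it was 50. The labels link the libraries only by a replicate number and do not say whether same-numbered libraries are paired. Deviations of same-numbered libraries correlated at 0.104, 0.097 and 0.104, and those of other pairs between the gates at -0.124 to 0.02. Each library thus correlated best with its own number, and the main fit takes no account of a pairing. The block called 81 genes and 0 members.

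Il6ra, Il6st, Il12rb1, Il18r1 and Il18rap kept their direction in every alternative that could test them. Il6ra did not pass the filter on TPM and, with the filter applied anew, without GFP-positive replicate 3. Its log2 fold change ran from 2.15 to 3.53 with each library left out and was 0.93 at the lowest, on log2(TPM + 1) with no filter. Directions turned when some single libraries were left out: log2 fold changes ran from -0.212 to 0.023 for Il12rb2, -0.14 to 0.17 for Il27ra, -0.34 to 0.583 for Il10ra, -0.015 to 0.283 for Il10rb and -0.735 to 0.184 for Il1rl1. That of Il12rb1 kept its sign and ran from -0.631 to -0.251. Without GFP-positive replicate 3 on the genes of the full data, the values that turned were 0.011 for Il12rb2, 0.174 for Il27ra and -0.333 for Il10ra. The ratio difference ran from -0.65 to 0.12 for Il27ra over Il6st and -0.29 to 0.53 for Il10ra over Il10rb. The cause was not tested. With 3 libraries a gate, the ratio tests cannot reach p under 0.1, and Il6ra rests on few counts.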

Other observations

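Kit, a receptor of mast cells, innate lymphoid cells and progenitors, was chosen after its values were seen. It had 9.01, 6.90 and 32.8 CPM in GFP-positive and 10.1, 13.4 and 27.8 CPM in GFP-negative replicates 1 to 3. Like Il1rl1, it was highest in replicate 3 of each gate and lowest in GFP-positive replicate 2. The other 10 mast cell and basophil genes summed to 2 to 66 counts in a library, with Fcer1a at 5, 0 and 0 counts in GFP-negative replicates 1 to 3 and 0 in all GFP-positive ones.

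Il18bp, the secreted binding protein that captures IL-18, had 16.1, 19.8 and 82.8 CPM in GFP-positive and 10.1, 6.14 and 10.96 CPM in GFP-negative replicates 1 to 3. It was also named after its values were seen. All GFP-positive libraries were above all GFP-negative ones, as for 7.25% of all genes, and GFP-positive replicate 3 was the highest. Markers of myeloid, epithelial and stromal cells were high in that library, and the part of those cells was not tested. The log2 fold change was 2.13 ± 0.66 (SE; edgeR adjusted p = 0.33). Ifngr2, the signalling chain of the interferon gamma receptor, was likewise named after its values were seen. It had 5.20, 9.20 and 30.8 CPM against 3.30, 3.18 and 0 CPM (edgeR adjusted p = 0.416). Its values were higher without overlap, as for 7.25% of all genes, and highest in GFP-positive replicate 3. The part of other cells in its values was not tested. Its partner Ifngr1 stood at 1414 to 1781 CPM in all libraries.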
